A study of Bos indicus with 11 samples.

Results

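The genes described here are 10 ligands and receptors of the vascular endothelial growth factor (VEGF) and angiopoietin families, followed in endometrial biopsies of cows that did or did not turn out to be pregnant. They were chosen by gene symbol, with earlier results of these data known. The list held 6 ligands (VEGFA, VEGFB, VEGFC, ANGPT1, ANGPT2 and ANGPT4) and 4 receptors (FLT1, KDR, FLT4 and TEK), and a gene was taken where a row of the deposited table carried exactly that symbol. Of the 24616 genes in the table, 18640 had a symbol, and 8 of the 10 listed genes were found, each in 1 row. These were 5 ligands and 3 receptors. VEGFA and FLT4 matched no symbol and were not analysed here.

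The 11 biopsies came from healthy multiparous Nelore cows (Bos indicus). All of them had been synchronized with a prostaglandin F2α analogue and artificially inseminated (AI) at estrus, and all were biopsied 6 days later in the uterine horn opposite the corpus luteum, the gland that forms after ovulation and makes progesterone. On day 30 the cows were diagnosed as pregnant (P, n = 6) or non-pregnant (NP, n = 5), so the groups were formed after the biopsy and no treatment separates them. Each cow is 1 replicate, and the authors left a further NP library out because its reads did not align well. A biopsy is a mixture of glands, stroma, vessels and sometimes muscle, so each value is a level in bulk tissue.

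VEGF ligands act on endothelial cells, which line the blood vessels, through the tyrosine kinase receptors FLT1 (VEGFR1), KDR (VEGFR2) and FLT4 (VEGFR3). The angiopoietins act on the receptor TEK (TIE2), where ANGPT1 is an activator that steadies vessels and ANGPT2 is an antagonist or a weak activator that loosens them. The endometrium remodels its vessels over the cycle, and both systems are known for their part in vessel growth.

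Between 9290949 and 13569085 reads were counted on genes per cow. The values are normalized counts, in which reads per gene are divided by a size factor of the cow, and 1 read is worth 0.784 to 1.14 normalized counts. Levels are compared between cows and not between genes, since no transcript lengths were used. On the first principal component, which held 46.6% of the variance, cow P617 lay at -166 and cow P1541 at -59.1, apart from the other cows, which lay between -8.58 and 43.3. Cow P617 is pregnant in the labels but is listed as non-pregnant in the study's supplement, and it was kept as P. Values without these cows are given beside the results that rest on them. Markers of epithelium, stroma, endothelium and smooth muscle were above 0 in every cow, which does not show that the biopsies were alike. The mean of the 9 epithelial markers on the log2 scale was 7.96 in P617 and 9.54 to 11.1 in the other cows.

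The groups were compared with limma on the log2(normalized count + 1) scale over the 15081 genes whose mean reached 5, and fold changes are NP over P. None of the 8 genes passed the threshold of 0.1 after Benjamini-Hochberg adjustment, and 0% of all genes tested did. The smallest adjusted p over all genes was 0.147, and on recovered reads edgeR and limma-voom likewise called 0 genes, whereas DESeq2 called 201. At an unadjusted p under 0.05 there were 4 of the 8 genes, ANGPT4, TEK, FLT1 and ANGPT2, against 7.84% of all genes tested. All 4 had higher levels in NP cows, a direction in which 5.49% of all genes reached that p. They were 2 of the 5 ligands and 2 of the 3 receptors. The 8 genes were chosen with earlier results known and measured in the same cows. They are not independent results, so the comparison with all genes is a description. All 3 receptors and 3 of the 5 ligands had a log2 fold change above 0, against 50.2% of all genes. The median log2 fold change was 1.17 for the receptors, 0.03 for the ligands and 0.0018 for all genes tested. The P and NP ranges overlapped in all 8 genes, while 1.09% of all genes tested showed no overlap. In bulk tissue, fewer endothelial cells and less RNA per endothelial cell cannot be told apart.

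**Figure D1:**
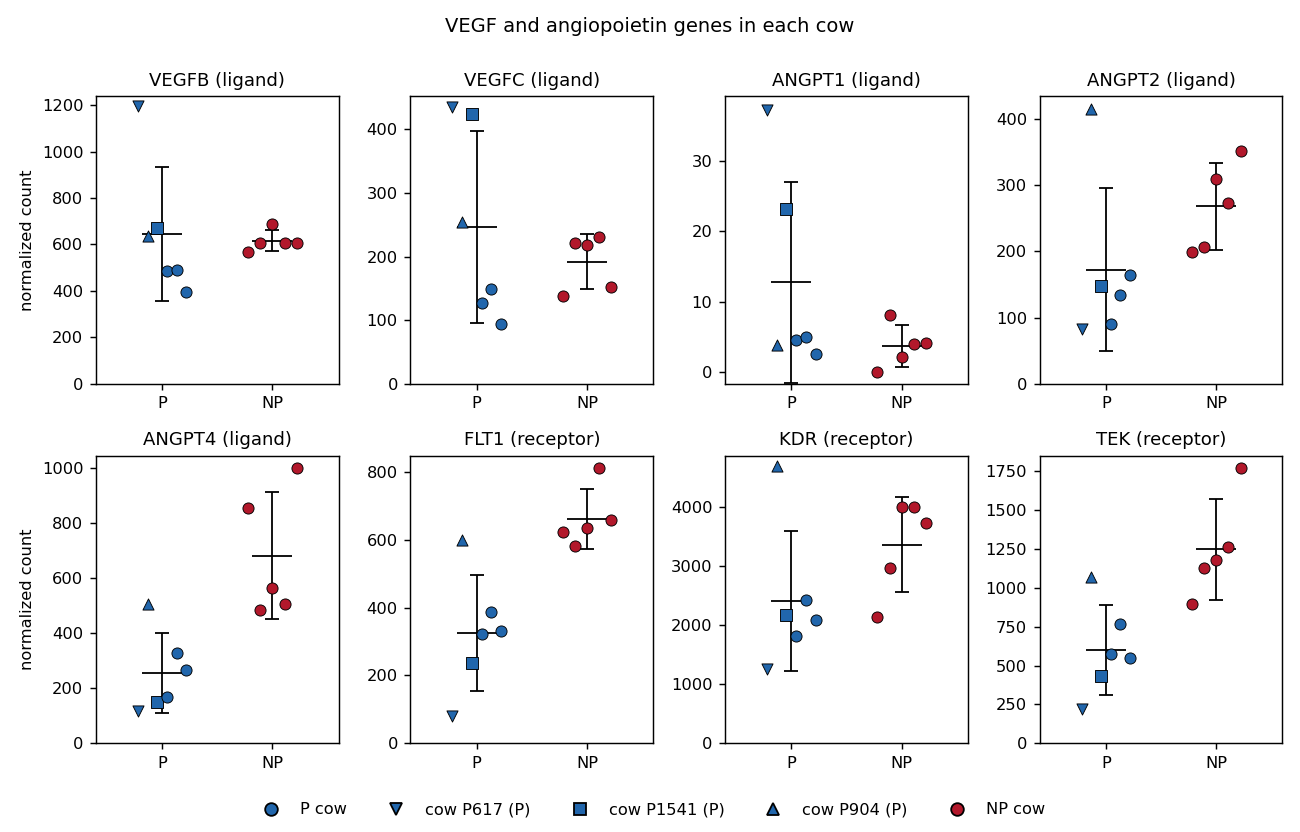
Normalized count of each VEGF or angiopoietin gene in every cow, with 6 P cows (blue) and 5 NP cows (red), and horizontal lines for the group mean with bars of 1 SD; each panel has its own linear axis. The NP cows of ANGPT4, FLT1 and TEK lie above all P cows but P904, whereas P617 and P1541 stand highest in VEGFC and ANGPT1.

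Among the ligands of the VEGF receptors, VEGFB, which binds FLT1, differed least between the groups. VEGFB (ENSBTAG00000047567) had 397 normalized counts in the lowest P cow (P2396), a median of 562 and 1196 in the highest (P617). The NP cows had 568 (NP238), 607 (NP638), 689 (NP856), 609 (NP2541) and 609 (NP2810) normalized counts. The NP cows lay close together and inside the range of the P cows, of which P617 stood far above the others. The mean was 646 ± 289 normalized counts for P (SD, n = 6), against 616 ± 44.3 for NP (SD, n = 5). The log2 fold change was 0.03 (SE 0.24, 95% interval -0.49 to 0.54), with an adjusted p of 0.983 in limma. Without cows P617 and P1541 it was 0.31, with an unadjusted p of 0.0411 and an adjusted p of 0.429 in limma.

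VEGFC, the growth factor of lymphatic vessels that binds FLT4 and, once processed, KDR, also gave no difference beyond the spread. VEGFC (ENSBTAG00000014737) had 93.6 normalized counts in the lowest P cow (P2396), a median of 201 and 435 in the highest (P617). In NP cows, VEGFC had 139 (NP238), 221 (NP638), 218 (NP856), 231 (NP2541) and 152 (NP2810) normalized counts. P617 and P1541, at 435 and 424, were the only cows above 254, and the NP cows lay among the remaining P cows. Group means were 247 ± 151 normalized counts for P (SD, n = 6) against 192 ± 43.3 for NP (SD, n = 5). NP over P, the log2 fold change was -0.15 (SE 0.40, 95% interval -1.03 to 0.72), with an adjusted p of 0.939 in limma, and it turned to 0.37 without cows P617 and P1541.

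ANGPT1, the activating ligand of TEK that is made mainly by perivascular and stromal cells, was scarcely detected outside of those same P cows. ANGPT1 (ENSBTAG00000014051) had 2.63 normalized counts in the lowest P cow (P2396), a median of 4.80 and 37.3 in the highest (P617), followed by 23.2 in P1541. The NP cows had 0 (NP238), 8.12 (NP638), 2.15 (NP856), 3.92 (NP2541) and 4.08 (NP2810) normalized counts. At most 8 reads lay behind a value in an NP cow, and NP238 had none among 10594830 reads, where a count of 0 allows up to 3 reads. Apart from P617 and P1541 the P cows lay within the range of the NP cows. On average, P cows had 12.8 ± 14.3 normalized counts (SD, n = 6) whereas NP cows had 3.65 ± 2.99 (SD, n = 5). The log2 fold change was -1.28 (SE 0.76, 95% interval -2.93 to 0.37), with an adjusted p of 0.746 in limma. Without P617 and P1541, the P mean was 4.01 normalized counts and the gene fell below the filter on the mean, so it passed that filter only through these cows.

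ANGPT2, the ligand of TEK that endothelial cells release from their stores, lay higher in NP cows apart from 1 P cow. ANGPT2 (ENSBTAG00000011034) had 82.5 normalized counts in the lowest P cow (P617), a median of 141 and 416 in the highest (P904), and the next P cow, P2396, had 165. Each NP cow was above the median P cow, at 199 (NP238), 207 (NP638), 309 (NP856), 274 (NP2541) and 352 (NP2810) normalized counts. Cow P904 exceeded every NP cow, and the other 5 P cows lay below all of them. The mean was 172 ± 123 normalized counts for P (SD, n = 6), against 268 ± 65.5 for NP (SD, n = 5). NP over P, the log2 fold change was 0.83 (SE 0.37, 95% interval 0.02 to 1.63), with an unadjusted p of 0.0444 and an adjusted p of 0.618 in limma. On recovered reads its unadjusted p was above 0.05, at 0.117 in DESeq2 and 0.122 in edgeR. It was also above 0.05 in limma without cows P617 and P1541 (log2 fold change 0.62, unadjusted p 0.133). Without P617 alone, the log2 fold change was 0.66 and the unadjusted p in limma 0.0843.

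ANGPT4, a further ligand of TEK that has been studied less than the other angiopoietins, had the highest fold change of the 8 genes. ANGPT4 (ENSBTAG00000021811) had 116 normalized counts in the lowest P cow (P617), a median of 217 and 507 in the highest (P904). The NP cows had 855 (NP238), 485 (NP638), 562 (NP856), 507 (NP2541) and 999 (NP2810) normalized counts. Cow P904 lay among the lower NP cows, level with NP2541 and above NP638, and the other 5 P cows lay below every NP cow. Group means were 256 ± 146 normalized counts for P (SD, n = 6) against 682 ± 231 for NP (SD, n = 5). On the log2 scale the difference was 1.53 (SE 0.36, 95% interval 0.73 to 2.33), or 2.89-fold, with an unadjusted p of 0.00132 and an adjusted p of 0.264 in limma. DESeq2, the package named in the study's methods, gave an adjusted p of 0.0373 on the recovered reads and called ANGPT4 alone among the 8 genes, against 1.34% of all genes. The quasi-likelihood test of edgeR gave an adjusted p of 0.351, and limma-voom 0.232, on the same reads.

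The counting was not stated to use the strand. The reads had been mapped to the genome of another species, Bos taurus (UMD3.1). In the RefSeq annotation of a Bos indicus assembly, ANGPT2 overlaps MCPH1, ANGPT4 overlaps the long non-coding RNA LOC139186545 and ANGPT1 overlaps the pseudogene LOC109568670. Whether reads of those neighbours entered the counts of the 3 angiopoietins was not tested, and the counts of these 3 genes are uncertain to that extent. The VEGF ligands and the receptors had no such neighbour there.

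FLT1, the high-affinity receptor of VEGFA, VEGFB and placental growth factor, whose soluble form traps the ligand, had a higher mean in NP cows. FLT1 (ENSBTAG00000016915) had 80.2 normalized counts in the lowest P cow (P617), a median of 327 and 598 in the highest (P904). In NP cows, FLT1 had 623 (NP238), 581 (NP638), 635 (NP856), 810.0 (NP2541) and 656 (NP2810) normalized counts. P904 lay just above NP638, the lowest NP cow, and the other P cows reached at most 386. On average, P cows had 326 ± 171 normalized counts (SD, n = 6) whereas NP cows had 661 ± 87.6 (SD, n = 5). The log2 fold change was 1.23 (SE 0.40, 95% interval 0.36 to 2.11), or 2.35-fold, with an unadjusted p of 0.00991 and an adjusted p of 0.434 in limma. Without P617, the lowest of all cows, the log2 fold change was 0.88. Counts per gene do not separate the soluble from the membrane form.

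KDR, the receptor that carries most of the growth signal of VEGFA in endothelial cells, differed by less than its spread. KDR (ENSBTAG00000000782) had 1259.6 normalized counts in the lowest P cow (P617), a median of 2132 and 4692 in the highest (P904). The NP cows had 2142 (NP238), 2973 (NP638), 3995 (NP856), 3995 (NP2541) and 3726 (NP2810) normalized counts. P904 exceeded every NP cow, and NP238 lay within the lower P cows. The mean was 2409.7 ± 1187 normalized counts for P (SD, n = 6), against 3366 ± 802 for NP (SD, n = 5). NP over P, the log2 fold change was 0.56 (SE 0.29, 95% interval -0.07 to 1.20), with an adjusted p of 0.699 in limma. Without cows P617 and P1541 it was 0.35, with an unadjusted p of 0.234 in limma.

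TEK, the receptor of the angiopoietins, had the smallest unadjusted p among the receptors. TEK (ENSBTAG00000020148) had 221 normalized counts in the lowest P cow (P617), a median of 561 and 1066 in the highest (P904). In NP cows, TEK had 898 (NP238), 1126 (NP638), 1177 (NP856), 1259 (NP2541) and 1769.6 (NP2810) normalized counts. P904 lay between NP238 and NP638, and the other 5 P cows lay below all NP cows, with 766 the highest of them. Group means were 601 ± 289.7 normalized counts for P (SD, n = 6) against 1246 ± 322 for NP (SD, n = 5). The log2 fold change was 1.17 (SE 0.34, 95% interval 0.43 to 1.91), or 2.25-fold, with an unadjusted p of 0.00491 and an adjusted p of 0.364 in limma. DESeq2 gave adjusted p-values of 0.133 for TEK and 0.235 for FLT1.

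The P cows kept a similar order in the genes that lay higher in NP cows. P904 was the highest and P617 the lowest of the P cows in 5 of the 8 genes, ANGPT2, ANGPT4, FLT1, KDR and TEK. In VEGFB, VEGFC and ANGPT1 the order was another one, with P617 highest and P2396 lowest. Among the NP cows, NP238 was lowest in 6 of the 8 genes, and NP2810 was highest in ANGPT2, ANGPT4 and TEK. With P904 left out, a choice made after its values were seen, the groups no longer overlapped in 4 of the 8 genes, ANGPT2, ANGPT4, FLT1 and TEK, against 3.23% of all genes tested. In the fit without P904, adjusted p-values in limma were 0.0460 for ANGPT4, 0.0863 for ANGPT2 and 0.0935 for TEK, so that 3 of the 8 genes passed 0.1, against 1.13% of all genes. FLT1 had 0.139 and KDR 0.194 in that fit. Without any other single cow, none of the 8 genes passed. Without both P617 and P1541, 4 of the 7 genes tested had an unadjusted p under 0.05, against 11.1% of all genes. These were FLT1 at a log2 fold change of 0.73, TEK at 0.77, ANGPT4 at 1.15 and VEGFB at 0.31. ANGPT2, at 0.62, was no longer among them, with an unadjusted p of 0.133 in limma.

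**Figure D2:**
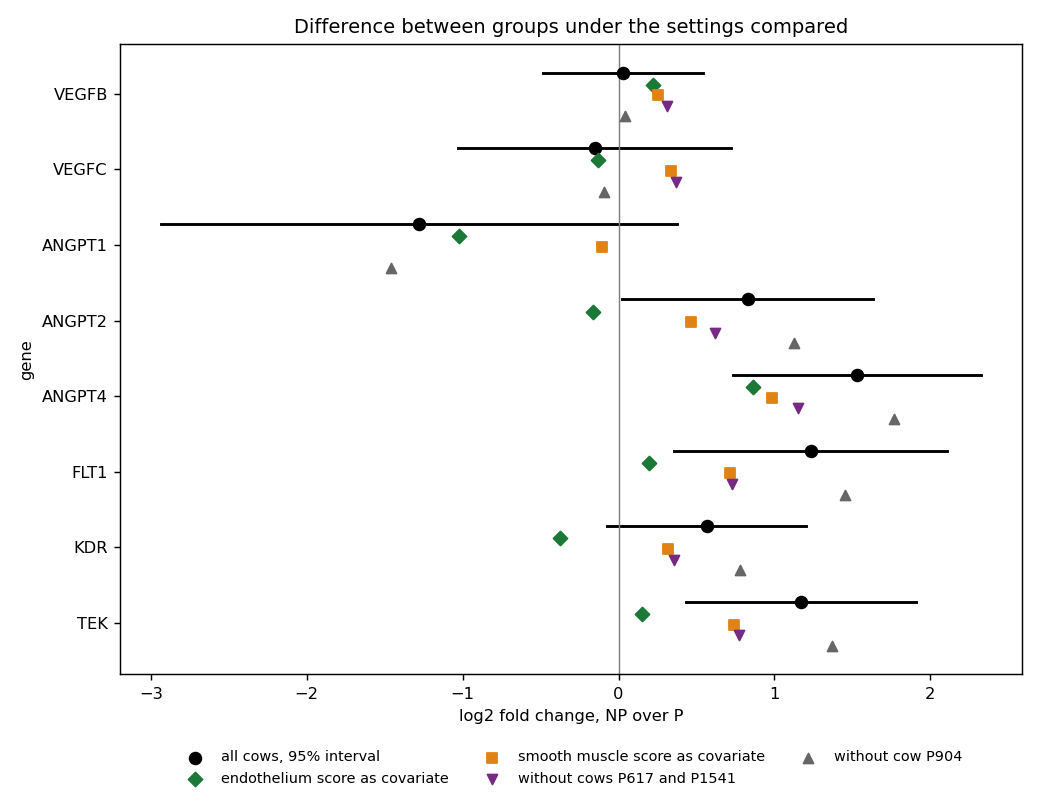
Log2 fold change, NP over P, of each gene with all cows (black, with its 95% interval), with the endothelium or the smooth muscle score as a covariate, without cows P617 and P1541, and without cow P904. ANGPT4 lies above 0 in every setting shown, whereas ANGPT2 and KDR lie below 0 with the endothelium score; ANGPT1 was not tested without P617 and P1541.

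Markers of endothelial cells moved with these differences. The endothelial list held 12 genes, such as PECAM1, CDH5, VWF and ERG, and none of the VEGF or angiopoietin genes. All 12 had higher levels in NP cows at an unadjusted p under 0.05 in limma, against 5.49% of all genes, and none was at 0 in any cow. This list, like the other marker lists, was chosen with earlier results of these data known. The comparison with all genes is therefore a description. The 12 genes were measured in the same cows and are not 12 independent results. Their summed level was 4812 to 12505 normalized counts in P cows and 7943 to 14965 in NP cows. The endothelial score, the mean of the 12 genes on the log2 scale, averaged 8.92 ± 0.45 for P (SD, n = 6) against 9.69 ± 0.35 for NP (SD, n = 5). It differed by 0.77 (two-sided exact permutation test over the cows, p = 0.00866, or 0.0519 adjusted over 8 marker lists). The P cow with the highest score was P904, at 9.69, and the lowest was P617, at 8.32.

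All other scores, like the endothelial one, had adjusted p-values above 0.05. All 6 pericyte, 7 leukocyte and 6 stromal markers tested had a log2 fold change above 0, against 50.2% of all genes. So did 7 of 9 epithelial, 2 of 4 lymphatic, 0 of 6 smooth muscle and 0 of 1 blood markers. At an unadjusted p under 0.05 in limma, 3 pericyte, 4 leukocyte and 2 stromal markers were higher in NP cows (5.49% of all genes). At that p, 2 smooth muscle, 1 lymphatic and 1 epithelial marker were higher in P cows. The pericyte score differed by 0.62 (exact permutation test, p = 0.0130, adjusted 0.0519), with 6 of 7 genes tested and a summed level of 3956 to 8357 normalized counts in P cows and 7566 to 9242 in NP cows. PDGFRB, a gene of that list, had the smallest adjusted p of all genes, 0.147 in limma. The leukocyte score differed by 0.67 (exact permutation test, adjusted p = 0.0693) and the stromal score by 0.55 (adjusted 0.182), or by 0.90 without P617 and P1541 (unadjusted p = 0.0159). The smooth muscle score was lower in NP cows by 1.27 (exact permutation test, adjusted p = 0.187), and its summed level was 34469 to 269365 normalized counts in P cows and 18049.5 to 123390 in NP cows. P617, at 14.9, and P1541, at 14.5, had the highest smooth muscle scores, ahead of NP638 at 13.9. Without these P cows the difference was -0.59 (exact permutation test, unadjusted p = 0.413). The lymphatic score differed by -0.34 (exact permutation test, adjusted p = 0.387) with 4 of 6 genes tested, and the blood score, resting on 1 of 7 genes, by -0.09. The epithelial score differed by 0.10 (exact permutation test, adjusted p = 0.931), but by -0.49 without P617 and P1541 (unadjusted p = 0.0317). P617 had the lowest epithelial score, at 7.96.

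Across the 11 cows, 5 of the 8 genes followed the endothelial score. The share of all genes that follow it as closely was not computed, so this count is a description. TEK followed it most closely by rank (Pearson's r 0.94, Spearman's rho 0.99, permutation p adjusted over 8 relations 0.00016 and 8e-05). KDR had r 0.93 and rho 0.81, FLT1 0.87 and 0.93, ANGPT2 0.86 and 0.82, and ANGPT4 0.79 and 0.86, with adjusted permutation p-values of at most 0.00715. Without NP2810 and NP2541, the cows farthest from the median score, r was 0.92 for TEK, 0.92 for KDR, 0.85 for FLT1, 0.83 for ANGPT2 and 0.75 for ANGPT4. Within the groups, taken as deviations from the group means, r was 0.88 for TEK, 0.95 for KDR, 0.75 for FLT1, 0.80 for ANGPT2 and 0.54 for ANGPT4. The receptors and ANGPT2 thus stood high in the same cows as the endothelial markers also among cows of equal outcome.

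VEGFB, VEGFC and ANGPT1 did not follow the endothelial score over all cows, at r -0.14, -0.09 and -0.40. For VEGFB and VEGFC this rested on P617 and P1541, without which r was 0.89 and 0.82 over 9 cows. ANGPT1 had r 0.86 and rho 0.78 with the smooth muscle score, and r 0.66 without P617 and P1541, given with no test since it was tested only through these cows. ANGPT4 ran against that score (r -0.80, rho -0.85, permutation p adjusted over 8 relations 0.0103 and 0.0112), and so did FLT1 (r -0.75, rho -0.74, adjusted 0.0103 and 0.0330) and TEK (r -0.75, rho -0.67, adjusted 0.0142 and 0.0534). Without those cows r was -0.58 for ANGPT4 and -0.39 for both FLT1 and TEK. The smooth muscle score was taken after the data had been seen.

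**Figure D3:**
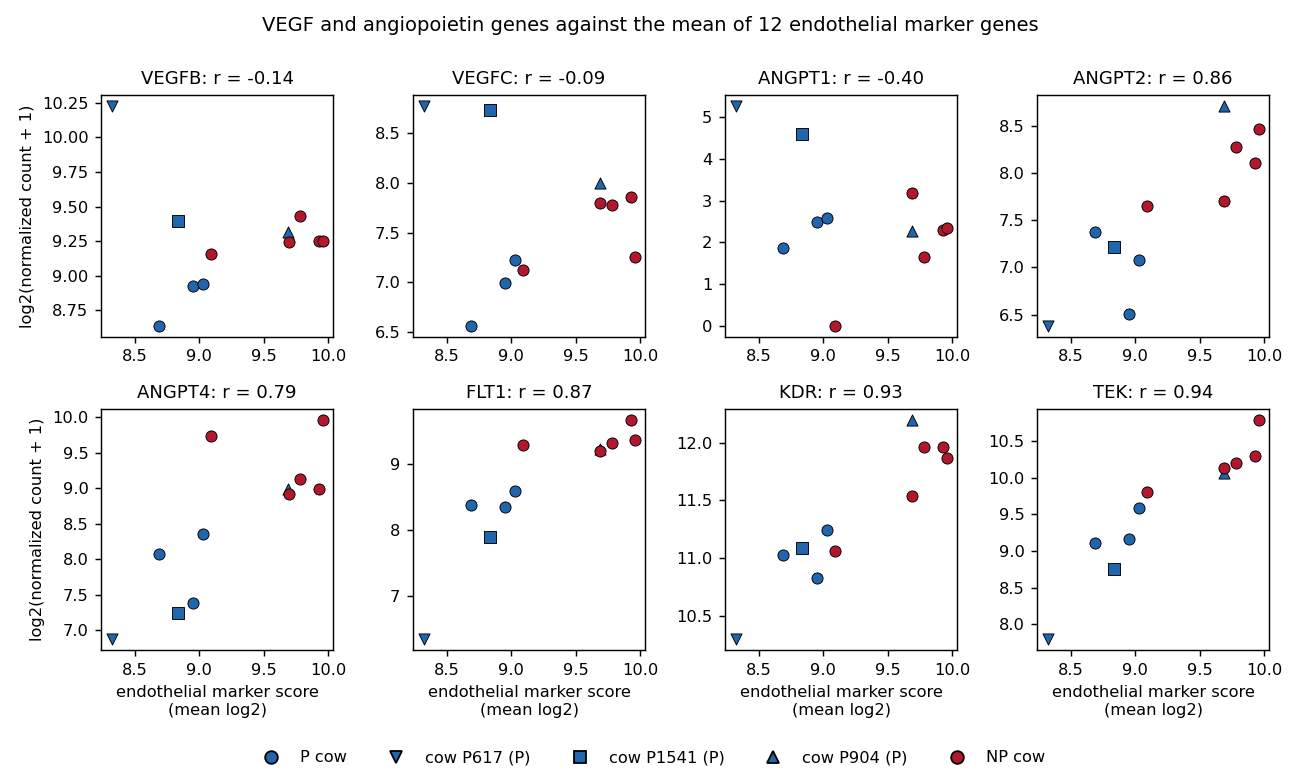
Level of each gene, as log2(normalized count + 1), against the mean log2 level of 12 endothelial marker genes in the 11 cows, with Pearson's r over all cows above each panel. TEK, KDR and FLT1 increase along the score from P617 at 8.32 to NP2810 at 9.96, whereas VEGFB and VEGFC do so only among the cows other than P617 and P1541.

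With the endothelial score as a covariate in limma, none of the 8 genes had an unadjusted p under 0.05, against 3.22% of all genes. NP over P, the log2 fold change was then 0.86 for ANGPT4 (unadjusted p 0.0923 in limma), 0.20 for FLT1 and 0.15 for TEK. It was -0.16 for ANGPT2 and -0.38 for KDR, which had the smallest unadjusted p of the 8 genes in that fit (0.0552 in limma). The score is measured in the same cows and itself differs between the groups, so the outcome and the endothelial level cannot be told apart in full. With the smooth muscle score, ANGPT4 at 0.98 and TEK at 0.74 kept an unadjusted p under 0.05, which 5.97% of all genes had, and ANGPT1 moved from -1.28 to -0.10. With the epithelial score, FLT1 (adjusted p 0.0874 in limma), ANGPT4 (0.0893) and TEK (0.0893) passed 0.1, against 0.882% of all genes, at log2 fold changes of 1.16, 1.49 and 1.117. The part of the cell mixture in the differences was not tested beyond these fits.

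The same division appeared between pairs of genes, of which 28 were correlated over the 11 cows after the order of the cows had been seen. All 10 pairs among ANGPT2, ANGPT4, FLT1, KDR and TEK had a positive r, from 0.73 to 0.95, and from 0.56 to 0.91 without P617 and P1541. The closest pair was FLT1 and TEK (r 0.95, rho 0.95, permutation p adjusted over 28 pairs 0.00042 and 0.0007), with r 0.88 without P617 and P1541. Those cows were also the ones farthest from the median of FLT1. VEGFB and VEGFC formed a pair of their own (r 0.85, rho 0.85, adjusted permutation p 0.00157 and 0.00834), with r 0.75 without P617 and P2396, the cows farthest from the median. Of the 10 pairs that join VEGFB or VEGFC to the 5 genes named first, none had a positive r over all cows, from -0.52 to -0.06, and all 10 had one without P617 and P1541, from 0.39 to 0.86. Of the 10 pairs among those 5 genes, 10 passed 0.05 by r and 9 by rho after adjustment over the 28 pairs. Pairs with ANGPT1 are given no test, since it was tested only through P617 and P1541. The share of all pairs of genes that correlate as closely was not computed, so these counts are a description.

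**Figure D4:**
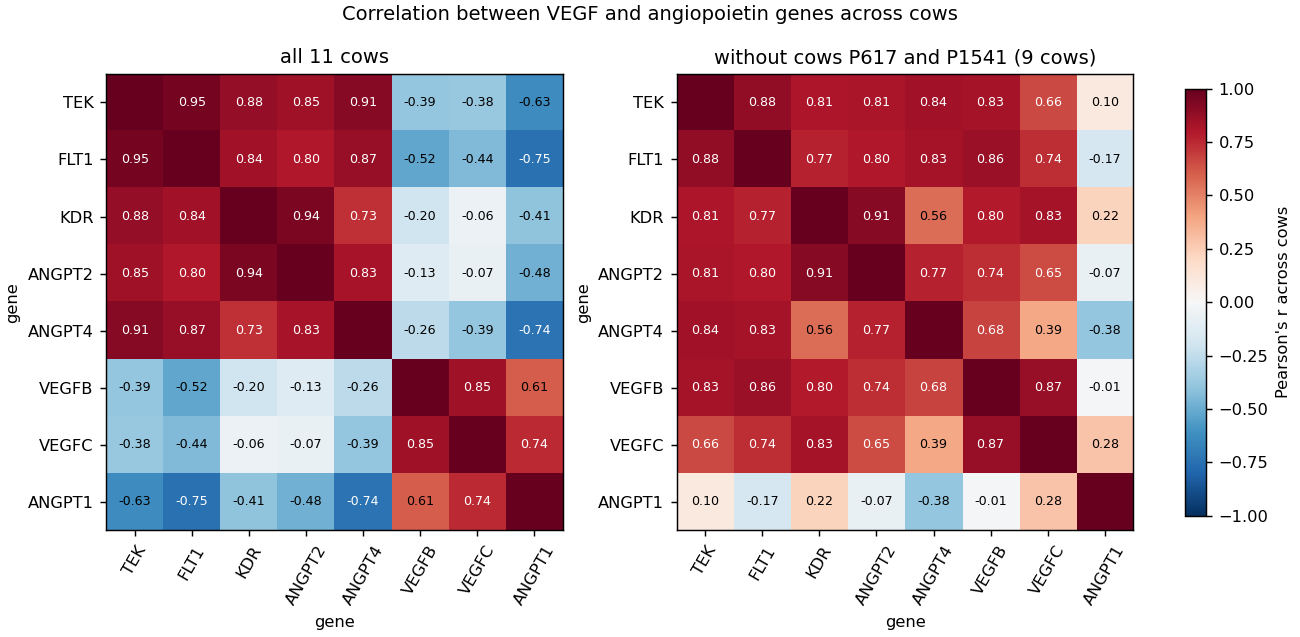
Pearson's r between each pair of genes on the log2(normalized count + 1) scale, over all 11 cows (left) and over 9 cows without P617 and P1541 (right), with red for positive and blue for negative r. The block of TEK, FLT1, KDR, ANGPT2 and ANGPT4 is positive in both, and VEGFB and VEGFC join it only on the right.

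The balance of ANGPT2 to ANGPT1, which oppose each other at TEK, was compared as a log2 ratio within each cow, where the size factor plays almost no part. In P cows it was 4.03 ± 1.93 (SD, n = 6), from 1.125 in P617 to 6.43 in P904. In NP cows it was 6.14 ± 1.15 (SD, n = 5), from 4.51 in NP638 to 7.65 in NP238, where ANGPT1 had no read. The groups overlapped. The difference of 2.11 is a description, with no test, because ANGPT1 passed the filter only through P617 and P1541. It was 2.59 without P904 and 1.02 without P617 and P1541. Its depth limit is ANGPT1, with 0 to 33 reads per cow.

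The genes whose levels ran most like those of each gene were sought by Spearman's rho over the 11 cows among all genes tested, as a description. For the receptors, several were genes of the vessel wall. TEK was most like CDH5 (rho 0.98), the cadherin of endothelial junctions, S1PR1 (0.98), the endothelial sphingosine 1-phosphate receptor, and a gene with no common name, ENSBTAG00000010452 (0.97). KDR was most like CD34 (0.96), the sialomucin of endothelial and stem cells, CD8B (0.95) and the locus labelled LOC100849579; PDE4B (0.95). FLT1 was most like PEAR1 (0.98), the same ENSBTAG00000010452 (0.97) and ICAM1 (0.97), an adhesion molecule of endothelium and leukocytes.

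Among the ligands, ANGPT4 shared its full order of cows with FAM196A (rho 1), followed by APBB1IP (0.99) and APOE (0.99), the apolipoprotein of macrophages and liver. ANGPT2 was most like ACAN (0.97), the proteoglycan of cartilage, PROSER2 (0.97) and AJAP1 (0.96). ANGPT1 was most like ALDH4A1 (0.99), SNRPA (0.98) and DRG2 (0.97), on at most 33 reads in any cow. VEGFC was most like the locus labelled LOC783195; RNASE4 (0.97), PRELP (0.96), a proteoglycan of connective tissue, and CYP4V2 (0.95). VEGFB was most like BRMS1L (0.97), ANG (0.95), the secreted ribonuclease angiogenin, and EVA1B (0.95). Ties were common at this number of cows, so that 3 to 7 genes reached the rho of the last one named, and no likeness was tested.

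The other genes of these pathways were taken from lists, and none of them had an adjusted p under 0.1 in limma or an unadjusted p under 0.05 with a higher level in P cows. Against their counts stand 50.2% of all genes with a log2 fold change above 0 and 7.84% with an unadjusted p under 0.05. These lists were also chosen with earlier results of these data known, so those shares are given as a description. DESeq2 gave adjusted p-values under 0.1 for ADAMTS1 (0.0804), CDH5 (0.0937) and TIMP3 (0.0974). Of 8 tested ligands, co-receptors and processing genes, 6 had a log2 fold change above 0, with a median of 0.62, and 2 reached an unadjusted p under 0.05. These were TIE1, the orphan partner of TEK, at 0.94 on the log2 scale (limma, adjusted p 0.335), and PGF, the placental growth factor that binds FLT1, at 1.39 (adjusted p 0.527). For TIE1 the mean was 346 ± 131 normalized counts in the P group (SD, n = 6), against 625 ± 74.9 in the NP group (SD, n = 5). For PGF the mean was 262 ± 148 normalized counts in the P group (SD, n = 6), against 570.0 ± 188 in the NP group (SD, n = 5).

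Genes that pass the signal on inside the cell showed little difference as a list. Of 26 tested, 14 had a log2 fold change above 0, the median was 0.04, and 4 reached an unadjusted p under 0.05, against 7.84% of all genes. These were CDH5 at 0.96, which is also an endothelial marker, PIK3R1, the regulatory subunit of phosphoinositide 3-kinase, at 0.65, NOS3, the endothelial nitric oxide synthase, at 1.13, and VAV2 at 0.45.

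Genes that VEGF or angiopoietin signals are known to induce, with those of the Notch pathway in vessels, formed a list of their own. Of 16 tested, 15 had a log2 fold change above 0, against 50.2% of all genes, with a median of 0.64, and 8 reached an unadjusted p under 0.05, against 7.84%. The exception was ESM1, a proteoglycan of tip cells, at -0.56, named after its value was seen. By the smallest p these began with ADAMTS1, a secreted protease, at 0.87 (adjusted p 0.306 in limma), NOTCH4, the Notch receptor of endothelium, at 1.31 and FLI1, an endothelial and blood transcription factor, at 0.81. DLL4, the Notch ligand of sprouting tip cells, had 1.04, NOTCH1 0.65 and the transcription factor ETS1 0.55. With the endothelial score as a covariate, ADAMTS1 had 1.03 (unadjusted p 0.00916 in limma), whereas NOTCH4 had 0.41, FLI1 0.22, DLL4 0.10, NOTCH1 0.27 and ETS1 0.04. TIE1 had 0.16 and PGF 0.33 in that fit. Below 0 in it were HEY2 at -0.85, ESM1 at -0.82, SOX17 at -0.61, SOX18 at -0.35 and APLNR at -0.08. The rest of the 16 genes lay above 0. Without cows P617 and P1541, SOX17 turned to -0.35 (unadjusted p 0.0257 in limma) and HEY2 to -0.03. ESM1 had -0.63 there, and the rest lay above 0. These genes were named after their values were seen.

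Of the 9 oxygen-sensing genes tested, 3 had a log2 fold change above 0 and the median was -0.16. Only EPAS1, the hypoxia-inducible factor that is abundant in endothelium, reached an unadjusted p under 0.05, at 0.70 on the log2 scale (0.544 after adjustment in limma), and 1 of 9 is near the 7.84% of all genes. Of the 9 inhibitors of angiogenesis tested, all had a log2 fold change above 0, against 50.2% of all genes, with a median of 0.51, and 4 reached an unadjusted p under 0.05, against 7.84%. They were TIMP3, a matrix protease inhibitor that blocks KDR, at 0.51, COL18A1, whose collagen gives rise to endostatin, at 0.70, VASH1 at 0.92 and SEMA3F at 0.41. With the endothelial score as a covariate, TIMP3 had 0.29, COL18A1 0.24, VASH1 0.24 and SEMA3F 0.17. The other genes of this list are not given under that fit. COL18A1 was the one among them in which the groups did not overlap, as in 1.09% of all genes.

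**Figure D5:**
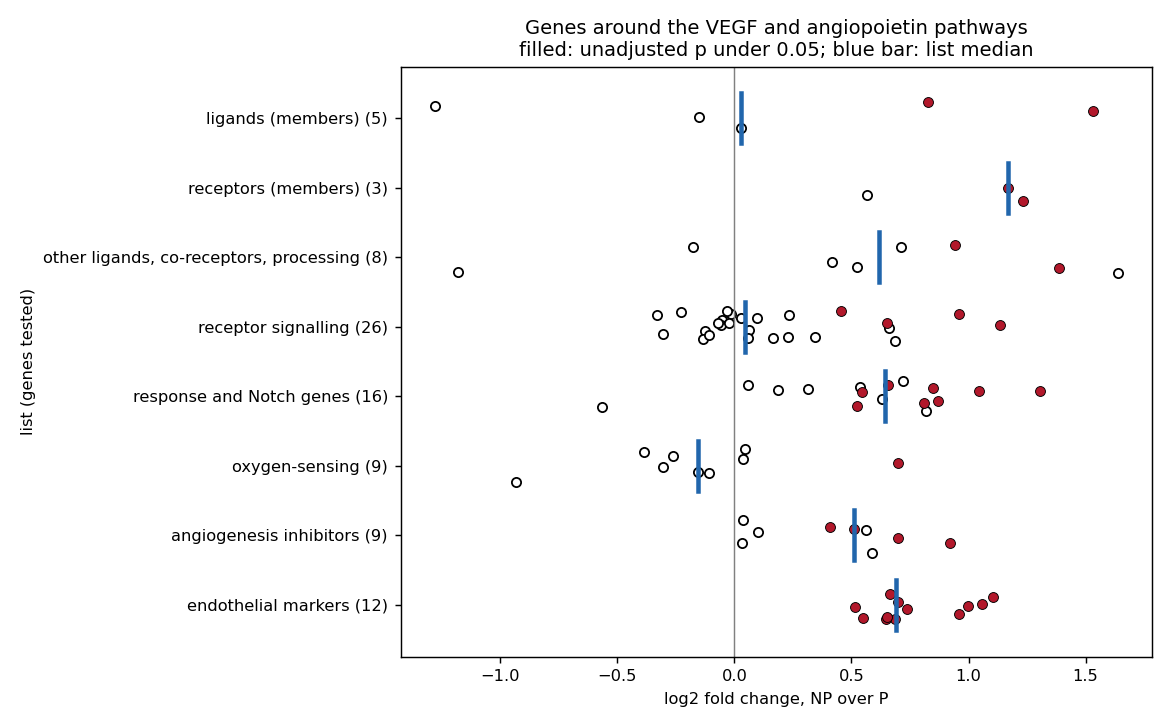
Log2 fold change, NP over P, of each tested gene in the ligand, receptor, pathway and endothelial marker lists, with the number tested in brackets, filled where the unadjusted p was under 0.05, and a blue bar at the median. The medians of the receptors (1.17) and of the endothelial markers lie to the right of 0, whereas those of the ligands (0.03) and of the signalling genes (0.04) lie near it.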

How the data were processed

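RNA-Seq was performed on endometrial biopsies of P and NP cows, of which 6 P and 5 NP are analysed here, and the authors left out a further NP library. The authors filtered the paired-end reads, mapped them with Bowtie2 2.1.0 to the masked Bos taurus assembly UMD3.1, counted reads per gene with HTSeq 0.5.4p2 and normalized them with DESeq2. The deposited table holds normalized counts, a signal without negative values. In all 11 cows 100% of the values were whole multiples of 1 read, within 0.01 of a read, and the reads were recovered. The use of strand is not given in the sources used here. Groups were taken from the labels. Cow P617, which the study's supplement lists as non-pregnant, was kept as P. The labels give no batch.

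Genes with a mean of at least 5 were tested with limma 3.58.1 (eBayes with a trend, R 4.3.3) on log2(normalized count + 1), with Benjamini-Hochberg adjustment at 0.1. Scores of marker lists were compared by exact permutation (two-sided), and correlations with 100000 permutations, on the log2 scale. Alternatives were edgeR 4.0.16, DESeq2 1.42.0 (no prior, no independent filtering) and limma-voom on recovered reads, pseudocounts of 0.5 and 5, no filter or a mean of at least 20, TMM and upper quartile scaling, marker scores as covariates, and cows left out. Only the limma and edgeR fits were run on simulated counts. Those were drawn gene by gene at a single dispersion and without outlying cows, unlike these data. The genes and lists were chosen with earlier results of these data known. All listed genes are named, and so are, of each pathway list, up to 6 genes with an unadjusted p under 0.05, and the 3 genes most like each by rank. Overlapping genes were taken from the RefSeq annotation of a Bos indicus assembly, not the one used for mapping, so no coordinates are given.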

Additional observations from a re-analysis of the deposited data

Results flagged for a closer look

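In 3 of the 34 groups of values examined, the P cows held a value that stood far from the rest by Dixon's test, where chance gives about 1 in 20 groups. Cow P617 had 1196 normalized counts of VEGFB against 672 in the next P cow, a gap of 0.66 of the range of the P cows. Cow P904 had 416 normalized counts of ANGPT2 against 165 in the next P cow, a gap of 0.75 of the range. Cow P904 also had 4692 normalized counts of KDR against 2423 in the next P cow, a gap of 0.66 of the range. Without P904 the log2 fold change, NP over P, was 1.13 for ANGPT2 and 0.78 for KDR, against 0.83 and 0.56 with all cows. Without P617 it was 0.23 for VEGFB, against 0.03.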

How the results depend on the processing

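The log2 fold changes of ANGPT4, FLT1, TEK and ANGPT1 kept their sign in every alternative in which they were tested (ANGPT1 at -0.10 with the smooth muscle score), whereas those of VEGFB, VEGFC, ANGPT2 and KDR turned in some. No scaling moved the median of all genes by over 0.1. The number of genes past 0.1, 0 with limma, was 201 with DESeq2, 133 with the epithelial score as a covariate and 17 without P617 and P1541, and leaving out each cow gave 0 to 171, the last without P904. The 4 genes with an unadjusted p under 0.05 became 0 with the endothelial score, 2 with the smooth muscle score, 3 with DESeq2 or edgeR, which lost ANGPT2, and 3 to 5 when each cow was left out. The log2 fold change of VEGFB turned to -0.067 with DESeq2 and -0.052 with edgeR, and ranged from -0.092 to 0.23 over the cows left out. That of VEGFC turned to 0.34 with the smooth muscle score and 0.37 without P617 and P1541, with -0.38 to 0.059 over the cows left out. With the endothelial score, ANGPT2 turned to -0.16 and KDR to -0.38. The difference in the ratio of ANGPT2 to ANGPT1 ranged from 1.52 to 2.59 over the cows left out. The epithelial score difference turned to -0.49 without P617 and P1541 and ranged from -0.30 to 0.33, and that of the blood list from -0.29 to 0.24. Without P617 and P1541, the correlation with the endothelial score turned to 0.89 for VEGFB, 0.82 for VEGFC and 0.27 for ANGPT1. The cause of these changes was not tested. ANGPT1 could not be tested at a mean of at least 20 or without P617 and P1541, where it fell below the filter, and its few reads limit its precision. No paired analysis was possible because the groups share no replicate numbers.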
